A study of Homo sapiens with 6 samples.

Results

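The interferon response genes and interferon regulatory factors (IRFs) described here are 41 genes given as a list of symbols, matched by symbol in a deposited table of 60664 genes. All 41 were found, and 30 of them had a TPM (a level scaled by transcript length and by the total of its library) of at least 1 in at least 3 libraries and were tested. SW480, the cell line used, was derived from human colorectal adenocarcinoma, and every library carries the genotype label WT. Cells received buffer (3 libraries) or Amuc_0904 (3 libraries), which is named like a gene of Akkermansia muciniphila, a bacterium of the gut. The labels give neither dose nor exposure time, and they do not say whether replicates were separate cultures, so p-values measure only the spread between these libraries.

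Interferons are secreted proteins that warn cells of infection. Type I interferons bind the receptor pair IFNAR1 and IFNAR2, and interferon gamma binds IFNGR1 and IFNGR2. The bound receptors act through the kinases JAK1 and TYK2 (type I) or JAK1 and JAK2 (gamma). The type I signal brings STAT2 and IRF9 into a complex that binds the interferon-stimulated response element (ISRE) in promoters, and interferon gamma acts on a gamma-activated site (GAS). The genes switched on in this way encode proteins that detect viral RNA, degrade it, block viral entry or restrict viral growth.

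None of the 30 tested members passed the test between Amuc_0904 and buffer libraries. In limma with Benjamini-Hochberg adjustment over all 14421 tested genes, 0 members rose and 0 fell, with adjusted p from 0.106 to 0.993. Over all tested genes 1.37% passed (0.368% higher and 0.999% lower), so a count of 0 among 30 is near the background. Those were 53 genes that rose and 144 that fell, a split that became 77 and 40 after a trend with GC content was removed from each library. An unadjusted p under 0.05 was found for 6 members, against 20.8% of all tested genes. It was found for 4 members with higher values in treated libraries (4.49% of all tested genes) and 2 with lower values (16.3%). Log2 fold changes, computed from log2(TPM + 1) as the treated mean less the buffer mean, ran from -0.31 (TYK2) to 0.35 (IRF2) among the members. Their median was 0.01, and the median of all tested genes was -0.06.

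The size of change was read from the 95% interval of each difference, taken gene by gene. This interval covers only the spread between libraries under the processing used here. All 30 intervals lay within 1 log2 unit of 0, as did 95.2% of those of all tested genes. For 26 members the interval lay inside a 1.5-fold change in either direction, against 76.8% of all tested genes. The 4 wider ones belonged to IRF1, IRF9, IFIT5 and TYK2. For ISG15, the ubiquitin-like protein that is among the most used interferon markers, the interval ran from -0.10 to 0.26. With a trend with GC content removed from each library, ISG15 was at 0.29, outside this interval. IRF3 (0.130, upper limit 0.119) and BST2 (0.112, upper limit 0.106) also left theirs. Adding 1 to each TPM shrinks the fold changes of low genes, so the intervals of low members such as USP18 or IFIT3 are narrower than those of their TPM ratios.

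**Figure D1:**
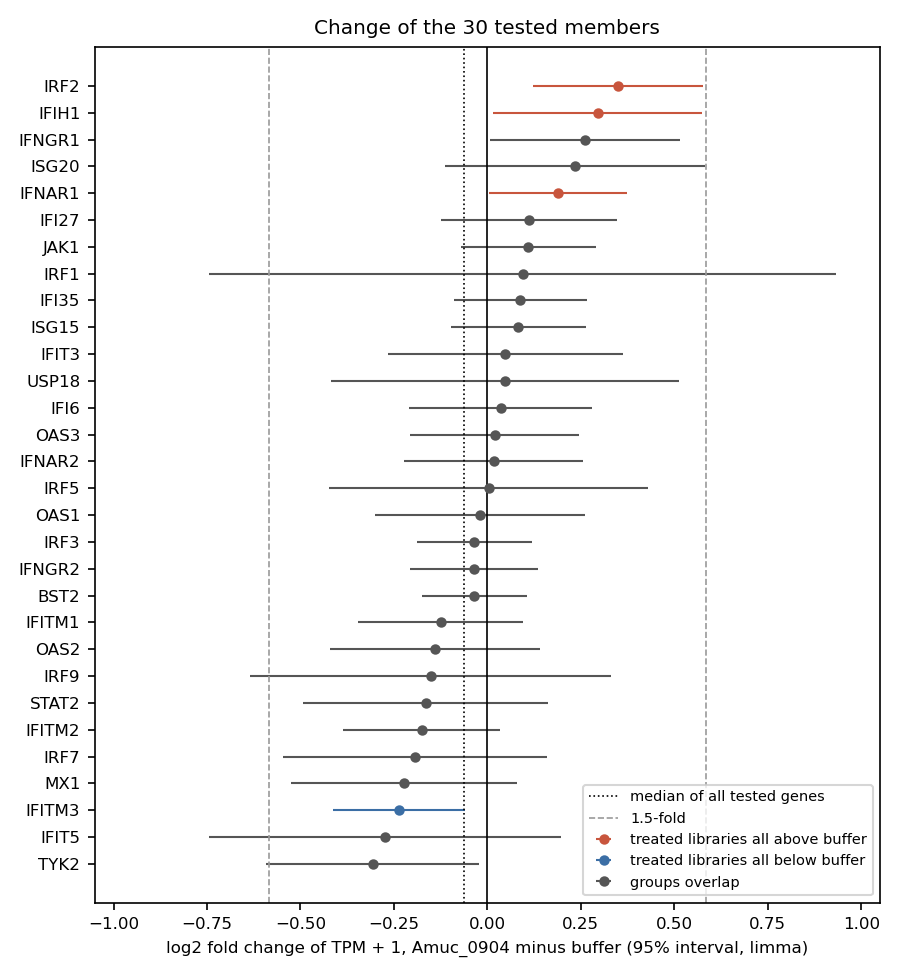
Log2 fold change of TPM + 1 (x axis, Amuc_0904 minus buffer) for the 30 tested members (y axis), with the 95% interval from limma, 3 libraries per group. All intervals lie within 1 log2 unit of 0, and the 4 coloured genes (IRF2, IFIH1 and IFNAR1 above, IFITM3 below) are those whose groups do not overlap.

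Letters of the same kind of element were found in many of these promoters, while the levels of the genes in SW480 cells differed widely. RefSeq promoters (build GRCh38.p14, from 250 bases before to 50 after each gene start) were found for 32 of the 41 members. An ISRE core, spelled as GAAA, any 2 bases and GAAA again and searched on both strands like the other motifs, was found in 18 of the 32 (56.2%), against 4.38% of all 27305 genes in the promoter table. A GAS, spelled TTCNNNGAA, was found in 8 of the 32 (25.0%, against 9.38%). An NF-kB site, spelled as GGGA, any 3 bases and TCC, was also found in 8 (25.0%, against 6.20%). A narrower form of it, GGGA, any base and TTTCC, was found in 3 (IFIH1, IFNGR2 and OAS3; 9.38%, against 0.678%). ISRE and GAS matches can share bases, as they do at BST2 and IFI27. A match describes the letters of the sequence and shows no binding. The members were listed as interferon response genes, so their ISRE share follows in part from the choice of list.

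The match nearest to the gene start whose window, 10 bases on each side included, lies wholly upstream of it is shown for 6 members with a high level and 6 with a level at or near 0, read along the strand of the gene. Capitals mark the ISRE core of this match, which reads TTTC first where it lies on the other strand. The windows of ISG15 and BST2 also hold a further core that overlaps the marked one and is not itself marked. The first 6 members shown had mean levels above 20 TPM and the last 6 below 1 TPM. All 12 were taken from the members with a core, after the levels were seen, so a core in each was set by the choice.
IFITM3 (chr11:320876-320905, minus strand): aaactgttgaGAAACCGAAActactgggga
IFITM1 (chr11:313990-314019, plus strand): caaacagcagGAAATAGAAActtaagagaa
ISG15 (chr1:1013380-1013409, plus strand): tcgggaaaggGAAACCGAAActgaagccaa
BST2 (chr19:17405735-17405764, minus strand): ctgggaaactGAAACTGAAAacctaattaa
IFI27 (chr14:94110631-94110660, plus strand): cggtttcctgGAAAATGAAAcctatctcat
IFI6 (chr1:27672266-27672295, minus strand): gcagagtgcaGAAATAGAAActccgacagg
HERC5 (chr4:88457035-88457064, plus strand): aaacattatgTTTCGTTTTCcactggagct
IFIT1 (chr10:89392510-89392539, plus strand): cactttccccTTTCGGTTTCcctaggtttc
RSAD2 (chr2:6877622-6877651, plus strand): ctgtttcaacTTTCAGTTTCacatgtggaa
CXCL10 (chr4:76023699-76023728, minus strand): tcatgttttgGAAAGTGAAAcctaattcac
IFI44 (chr1:78649761-78649790, plus strand): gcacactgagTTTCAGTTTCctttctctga
IFI44L (chr1:78620365-78620394, plus strand): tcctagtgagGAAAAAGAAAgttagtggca

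IFITM3 and ISG15 carry the same core, GAAACCGAAA, and were both listed above 100 TPM in every library. IFI44, IFI44L and CXCL10 each hold a core and were listed at 0 in all 6 libraries. Over the 18 members with a core the mean level ran from 0 to 902 TPM, with 3 of them at a mean of at least 100 TPM and 6 under 1 TPM. Over the 14 without a core it ran from 0.01 to 51.6 TPM. No promoter was found for IFITM2 (mean 941 TPM) or IRF3 (mean 153 TPM), among others, so these are in neither range. The log2 fold change of the 12 tested members with a core ran from -0.27 to 0.30, with 7 above 0 and 5 below. That of the 11 tested members without one ran from -0.31 to 0.26, with 6 above 0 and 5 below. Of all tested genes, 37.5% had a value above 0. The split holds for this spelling of the core only. OAS1, counted as without a core, holds GAAACGAAA upstream, which has a shorter gap.

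The receptors and kinases were all expressed, and all 6 were tested, with 0 past the threshold. IFNAR1, the type I receptor chain that binds TYK2, was at 21.4, 22.3 and 19.4 TPM in buffer replicates 1 to 3 and at 23.3, 23.7 and 25.3 TPM in Amuc_0904 replicates 1 to 3. Its treated libraries were all above the buffer libraries, with a log2 fold change of 0.19 (SE 0.08, limma adjusted p = 0.232). IFNAR2, its partner chain, was at 12.9, 14.7 and 13.7 TPM in buffer and at 15.7, 12.4 and 13.8 TPM in treated libraries. The IFNAR2 groups overlap almost fully (log2 fold change 0.02).

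For the interferon gamma receptor, IFNGR1, the chain that binds the ligand, was at 12.1, 14.04 and 15.7 TPM in buffer and at 18.2, 15.4 and 16.9 TPM in treated libraries. The groups overlap at buffer replicate 3 and Amuc_0904 replicate 2, and the log2 fold change was 0.26 (95% interval 0.0072 to 0.51, limma adjusted p = 0.229). IFNGR2, the signalling chain, ranged from 34.3 to 38.6 TPM in buffer and from 34.0 to 37.2 TPM in treated libraries, so its groups overlap. JAK1, the kinase that both receptor types use, ranged from 25.1 to 26.3 TPM in buffer and from 26.1 to 30.3 TPM in treated libraries.

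TYK2, the kinase of the type I receptor, had the largest negative value among the members. It was at 56.9, 68.2 and 47.2 TPM in buffer and at 44.1, 49.3 and 43.9 TPM in treated libraries. Buffer replicate 3 lies among the treated libraries, and buffer replicate 2 is the highest of the 6. The log2 fold change was -0.31 (SE 0.12, 95% interval -0.59 to -0.023, limma adjusted p = 0.209). With the GC trend removed it was -0.12. TYK2 lies on chromosome 19 from 10350529 to 10380676 in GENCODE 29 (GRCh38) and overlaps no other gene there. None of the motifs above was found in its promoter window.

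Of the 9 IRF and STAT members, 7 were tested, 0 passed, 3 had a log2 fold change above 0 and 4 below. IRF2, a factor first known for opposing IRF1 at shared sites, had the largest value of all members. It was at 14.8, 12.8 and 15.4 TPM in buffer and at 18.4, 17.2 and 20.04 TPM in treated libraries. All treated libraries lie above all buffer libraries, a pattern that 7% of all tested genes showed. The mean was 14.3 ± 1.38 TPM for buffer and 18.5 ± 1.45 TPM for treated libraries (SD, 3 libraries per group), with a log2 fold change of 0.35 (SE 0.10, 95% interval 0.12 to 0.58, limma adjusted p = 0.106). IRF2 lies on chromosome 4 from 184387713 to 184474580 and overlaps 1 annotated gene on each strand, so its value can hold reads of these.

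IRF1, an activator induced by interferon gamma and by NF-kB signals, was the most variable member. It was at 35.8, 48.0 and 26.9 TPM in buffer and at 23.97, 72.5 and 32.3 TPM in treated libraries. Amuc_0904 replicate 2 was the highest of the 6 libraries and Amuc_0904 replicate 1 the lowest, so the treated libraries span the whole buffer range. The SD of IRF1 within groups (0.64 on the log2 scale) was at the 98.2nd percentile of all tested genes. Its log2 fold change of 0.09 (95% interval -0.74 to 0.93) became -0.36 without Amuc_0904 replicate 2 (limma adjusted p = 0.419) and -0.11 without buffer replicate 3. The step from the highest to the next library was 0.58 log2 units, and 1.55% of tested genes had a step as large in some library. IRF1 lies on chromosome 5 from 132481609 to 132490798 and overlaps 2 annotated genes on the other strand. Its promoter holds a GAS between 124 and 116 bases upstream of the start, shown in capitals with 10 bases on each side.
IRF1 (chr5:132490879-132490907, minus strand): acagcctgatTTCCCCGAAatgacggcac

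IRF3, which waits in the cytoplasm until a sensor of viral nucleic acid activates it, was the most abundant factor. It ranged from 149 to 159 TPM in buffer and from 141 to 162 TPM in treated libraries, so the treated range encloses the buffer range (log2 fold change -0.03, 95% interval -0.19 to 0.12). IRF7, the factor that amplifies type I interferon production, ranged from 8.24 to 11.99 TPM in buffer and from 7.55 to 10.4 TPM in treated libraries. STAT2 ranged from 11.5 to 15.9 TPM and from 10.8 to 14.4 TPM, and IRF9, its DNA-binding partner, from 2.79 to 5.43 TPM and from 2.84 to 3.94 TPM. IRF5 had a mean of 8.52 ± 2.43 TPM with buffer and 8.42 ± 1.41 TPM with Amuc_0904 (SD, 3 libraries per group). The groups overlap for each of these 5 factors. IRF4 and IRF8, factors known chiefly from lymphoid and myeloid cells, were not tested: IRF4 was listed at 0 in 5 libraries and 0.06 TPM in buffer replicate 3, and IRF8 ranged from 0.41 to 1.21 TPM.

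Among the 6 genes for RNA sensing and degradation, 5 were tested and 0 passed. IFIH1, which encodes the double-stranded RNA sensor MDA5, was at 7.64, 6.78 and 6.62 TPM in buffer and at 8.24, 7.97 and 10.4 TPM in treated libraries. Its groups do not overlap, with Amuc_0904 replicate 3 the highest, and the log2 fold change was 0.30 (SE 0.12, limma adjusted p = 0.219). The OAS enzymes, which make the activator of RNase L in response to double-stranded RNA, had values close to 0: 0.02 for OAS3, -0.02 for OAS1 and -0.14 for OAS2. OAS3 was the highest of them, from 10.4 to 11.7 TPM in buffer and from 10.4 to 12.4 TPM in treated libraries. ISG20, an RNA exonuclease, was at 12.8, 9.75 and 9.84 TPM in buffer and at 15.4, 12.9 and 10.6 TPM in treated libraries, and the groups overlap. OASL was not tested and stayed between 0.08 and 0.26 TPM.

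The IFIT genes, whose proteins bind foreign RNA ends and which respond most steeply to type I interferon, were low in both groups. IFIT5 was at 3.14, 5.31 and 2.88 TPM in buffer and at 2.31, 2.94 and 3.40 TPM in treated libraries, with buffer replicate 2 apart from the other 5 (log2 fold change -0.27, 95% interval -0.74 to 0.20). IFIT3 ranged from 1.48 to 1.86 TPM in buffer and from 1.77 to 1.91 TPM in treated libraries. IFIT1 and IFIT2 were not tested. IFIT2 stayed between 0.26 and 0.46 TPM. IFIT1 was at 0.18, 0.14 and 0.14 TPM in buffer and at 0.11, 0.07 and 0.13 TPM in treated libraries, which were all below buffer in a table rounded to 2 decimals.

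The membrane proteins that block viral entry and release held most of the signal. IFITM1, IFITM2 and IFITM3 together made up between 70.6% and 75.7% of the summed TPM of the 41 members in each library. IFITM2 and IFITM3 were each above 98.8% of all tested genes by mean level. IFITM3 was at 871, 1053 and 1008 TPM in buffer and at 812, 859.6 and 809 TPM in treated libraries. Its treated libraries were all below the buffer libraries, a pattern of 20.1% of all tested genes, and the log2 fold change was -0.24 (SE 0.08, 95% interval -0.41 to -0.060, limma adjusted p = 0.138). IFITM2 was at 889, 1058 and 1047 TPM in buffer and at 899.9, 957 and 793 TPM in treated libraries, and IFITM1 ranged from 210.3 to 243 TPM and from 188 to 239 TPM, with overlapping groups. Both log2 fold changes were below 0 (-0.18 and -0.12).

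Those 3 genes lie next to each other on chromosome 11 (IFITM2 from 307631 to 315272, IFITM1 from 313506 to 315272, IFITM3 from 319669 to 327537). The annotated span of IFITM2 covers that of IFITM1, and the 3 sequences are near copies, so the split of reads between them is uncertain. Their sum was 1971, 2355 and 2297 TPM in buffer replicates 1 to 3 and 1924, 2055 and 1790.2 TPM in Amuc_0904 replicates 1 to 3. Buffer replicate 1 lies among the treated libraries in this sum, so the groups overlap. After the GC trend was removed the log2 fold changes were -0.095 for IFITM3, -0.05 for IFITM2 and -0.03 for IFITM1.

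BST2, which tethers budding virus to the cell surface, ranged from 94.5 to 103 TPM in buffer and from 92.4 to 99.0 TPM in treated libraries. Its SD within groups was 0.057 on the log2 scale and its 95% interval of change ran from -0.18 to 0.11. MX1, a GTPase that traps viral components, was at 3.94, 5.48 and 4.91 TPM in buffer and at 3.71, 4.03 and 4.03 TPM in treated libraries, and the groups overlap through buffer replicate 1. All 5 tested members of this role group had a log2 fold change below 0, where 37.5% of all tested genes had one above 0. The IFITM genes among them are near copies, so the 5 are not separate observations. BST2 was above 0 after median centring, quantile normalization or removal of the GC trend, and without buffer replicate 3, while the other 4 kept their sign in each alternative that tested them (MX1 was not tested with a filter of 5 TPM). RSAD2, the gene of the radical SAM enzyme viperin, was listed between 0 and 0.19 TPM and was not tested.

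ISG15 was the highest member of its group and one of the higher genes in the table (above 92.1% of tested genes). It was at 121, 105 and 114 TPM in buffer and at 128, 121 and 110.2 TPM in treated libraries. The groups overlap, with a mean of 113 ± 8.07 TPM for buffer and 120 ± 8.96 TPM for treated libraries (SD, 3 libraries per group). Its log2 fold change was 0.08 (limma adjusted p = 0.591), and 0.29 after the GC trend was removed (adjusted p = 0.201). USP18, the protease that removes ISG15 from its targets and dampens type I signalling, ranged from 0.72 to 1.83 TPM in buffer and from 1.08 to 1.38 TPM in treated libraries. HERC5, the main ligase that attaches ISG15, was not tested and stayed between 0.21 and 0.38 TPM.

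The 3 tested genes of the IFI group also overlapped between groups. IFI27, a mitochondrial and nuclear membrane protein gene, was at 30.2, 31.2 and 34.0 TPM in buffer and at 37.6, 36.5 and 29.4 TPM in treated libraries. Amuc_0904 replicate 3 was the lowest of the 6 and the other treated libraries were the highest (log2 fold change 0.11). IFI6, a gene of the same family, ranged from 22.7 to 28.9 TPM and from 24.8 to 28.3 TPM, and IFI35 from 19.9 to 20.95 TPM and from 20.2 to 22.6 TPM. The log2 fold change of IFI35 was 0.09, and 0.25 after the GC trend was removed (limma adjusted p = 0.200). IFI44 and IFI44L were listed at 0 in all 6 libraries. XAF1, a pro-apoptotic interferon target, was listed between 0 and 0.21 TPM. CXCL10, a chemokine that draws T cells and the usual readout of interferon gamma, was listed at 0 throughout. No fold is given for genes listed at 0, since such a value may come from an estimate that failed.

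**Figure D2:**
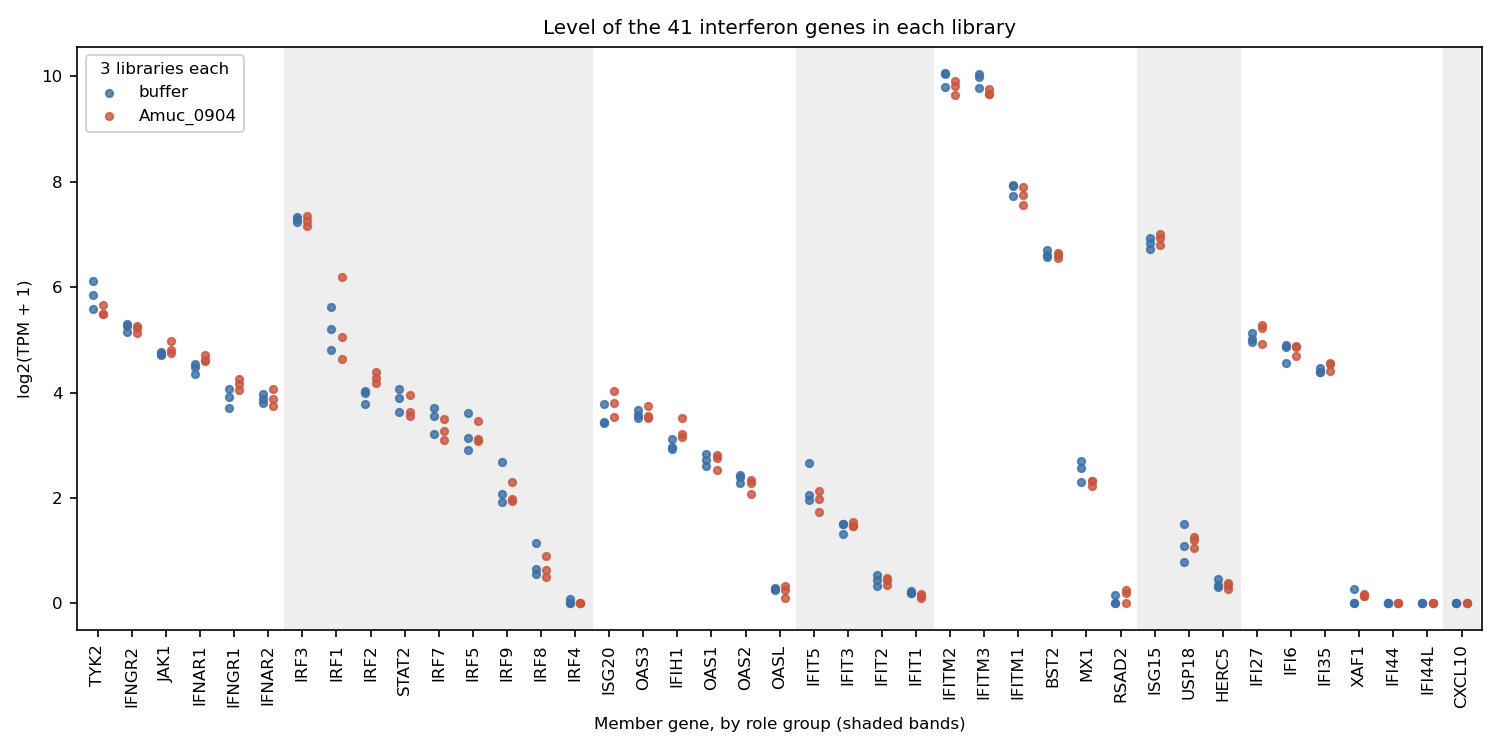
Level of each of the 41 members (x axis, ordered by role group and mean level) as log2(TPM + 1) in each library, with buffer in blue and Amuc_0904 in red, 3 libraries each. IFITM2 and IFITM3 are highest, the receptors, kinases and most IRFs lie in the middle, and 11 members stay at or below 1.21 TPM in both groups.

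**Figure D3:**
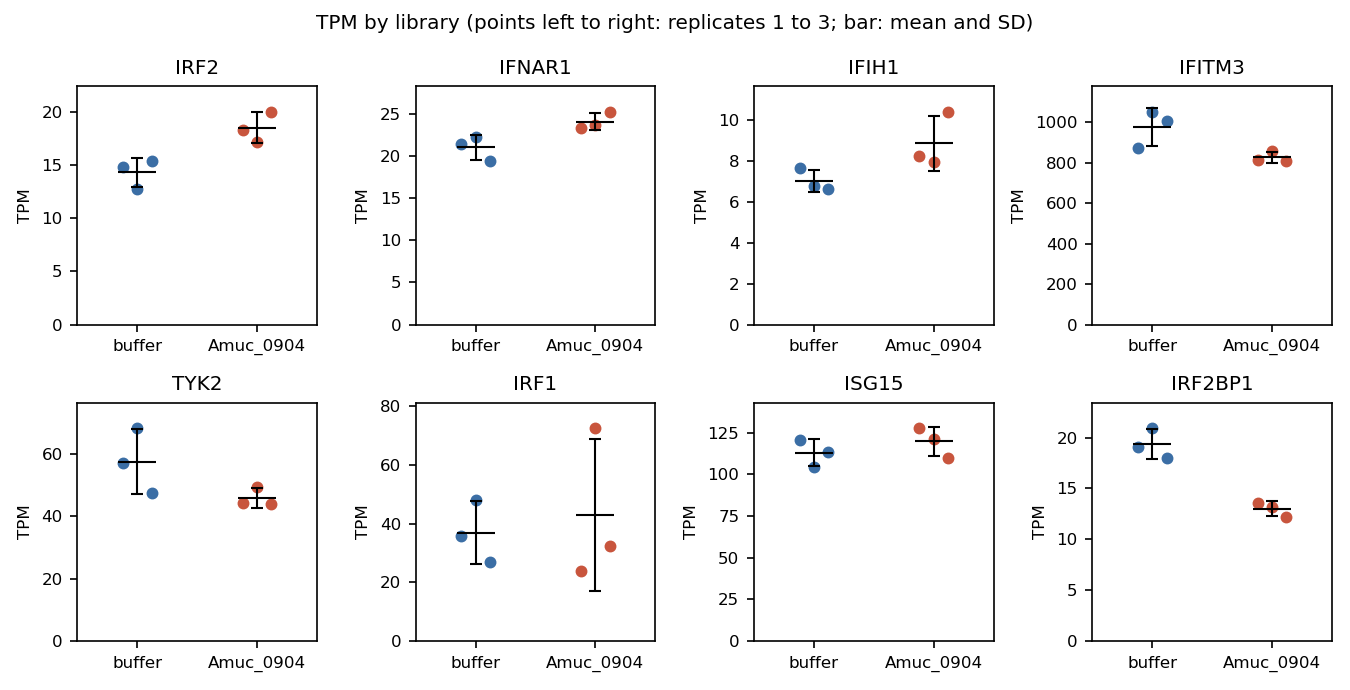
TPM (y axis, from 0) by library for 7 members and IRF2BP1, with the mean and SD of each group of 3 libraries. IRF2, IFNAR1 and IFIH1 lie higher and IFITM3 and IRF2BP1 lower in all treated libraries, while TYK2, IRF1 and ISG15 overlap and IRF1 has its highest and lowest value in the treated group.

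In all, 4 of the 30 tested members had groups that did not overlap, 3 higher (IRF2, IFNAR1 and IFIH1) and 1 lower (IFITM3), where 27.1% of all tested genes did not overlap. Libraries differed in composition in step with the groups. Buffer and treated libraries fell on opposite sides of the first principal component (33.8% of the variance), and its extremes were buffer replicate 2 and Amuc_0904 replicate 3. Mitochondrially encoded genes held 9.86% to 12.8% of TPM. The slope of log2 expression with transcript GC content, relative to the mean library, was between 0.0045 and 0.093 per 10 percentage points of GC in buffer and between -0.11 and 0.0021 in treated libraries. The epithelial markers EPCAM, KRT8, KRT18, KRT19, CDH1, CDX2 and VIL1 were all detected and summed to between 7907 and 8148 TPM in buffer and between 7092 and 7380.2 TPM in treated libraries. On that list CDH1, the gene of E-cadherin, fell from 7.01 ± 1.20 to 3.80 ± 0.246 TPM (SD, 3 libraries per group; log2 fold change -0.73, limma adjusted p = 0.044). It passed in 2 of 15 alternatives and not when any 1 library was left out. CDX2, an intestinal transcription factor, was at 30.7, 31.2 and 21.95 TPM in buffer and at 18.2, 19.3 and 18.5 TPM in treated libraries, all below buffer (log2 fold change -0.54, limma adjusted p = 0.077). CDX2 passed without buffer replicate 3 (limma adjusted p = 0.027) and with a filter of 5 TPM (adjusted p = 0.048). The part of these markers in the values of the members was not tested. The leukocyte list summed to at most 3.29 TPM in any library, with 5 of its 7 markers under 1 TPM throughout and PTPRC at 0. In bulk RNA, fewer cells with a transcript and less of it per cell cannot be told apart.

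Among the members the change tended to be lower where GC content was higher. The members with the largest positive values, IRF2 (45.4% GC), IFIH1 (43.3%) and IFNGR1 (40.2%), have transcripts of low GC content, and TYK2 (61.3%) and IFITM3 (56.9%) have transcripts of high GC content. Of the 10 tested members at or below the median GC content of tested genes (49.2%), 7 had a log2 fold change above 0, and of the 20 above it, 9 did. The medians were 0.08 and -0.03, and those of all tested genes split at the same value were 0.01 and -0.15. Across the 30 members Pearson's r of log2 fold change with GC content was -0.37 and Spearman's rho -0.38, and across all tested genes with a GC value they were -0.35 and -0.43. Genes of 1 library set share its composition and are not independent replicates. After the trend was removed IRF2 was at 0.37 (limma adjusted p = 0.119), IFIH1 at 0.29 and IFNAR1 at 0.18, close to their values before. TYK2 and IFITM3 moved by over 1.5 times toward 0, ISG15 and IFI35 moved as far away from it, and 0 members passed. Others moved as well, such as IRF5 (0.004 to 0.16), IFI6 (0.04 to 0.17) and IFITM1 (-0.12 to -0.03). The values of IFNGR2, IRF3, IRF7, OAS1 and BST2 changed sign.

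**Figure D4:**
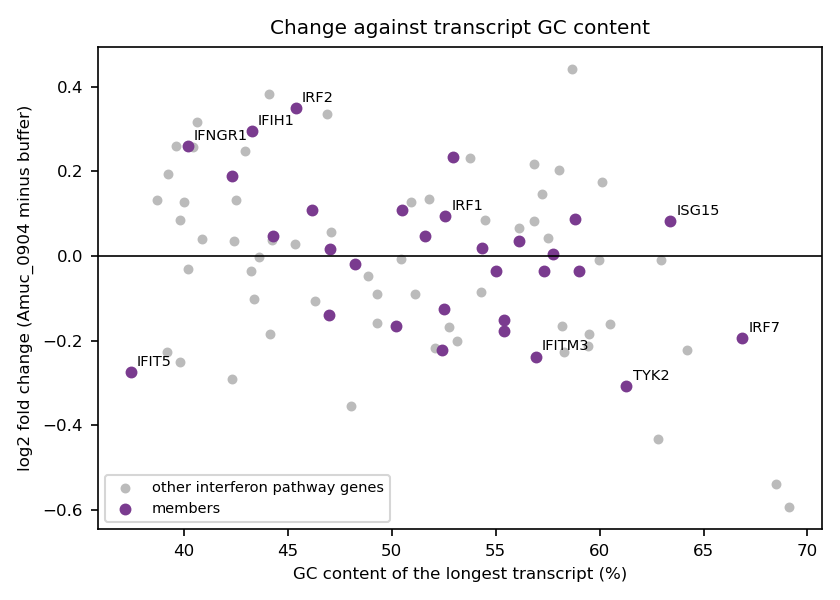
Log2 fold change (y axis, Amuc_0904 minus buffer) against GC content of the longest transcript in percent (x axis) for the 30 tested members (purple) and the 58 tested genes of the wider interferon list (grey). Points tend to lie lower at higher GC content, with Pearson's r of -0.37 among the members, while IFIT5 is low at the lowest GC content of the tested members.

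Other genes of the pathway were taken from a list of 87, of which 58 were tested, 1 rose and 1 fell. Over all tested genes 1.37% passed (0.368% higher and 0.999% lower), and whether 2 of 58 differs from that share was not tested. The largest group, 34 other interferon-stimulated genes, had 25 tested members, of which 0 passed in limma and 6 had an unadjusted p under 0.05 (2 higher, 4 lower), with a median of -0.04. The median log2 fold change of the 58 was below 0.01 in size. Upstream of the members, none of the 10 interferon genes listed was tested. IFNA2, IFNB1, IFNG, IFNK, IFNL2 and IFNW1 were listed at 0 in all libraries, and the other 4 (IFNA1, IFNE, IFNL1 and IFNL3) never passed 0.59 TPM. IL10RB, a chain of the lambda interferon receptor, had a mean of 13.3 ± 1.64 TPM with buffer and 10.98 ± 0.835 TPM with Amuc_0904 (SD, 3 libraries per group), with limma adjusted p = 0.240.

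The negative regulators held the gene that fell. IRF2BP1, a corepressor that binds IRF2, was at 19.0, 20.9 and 18.01 TPM in buffer and at 13.6, 13.2 and 12.2 TPM in treated libraries. All treated libraries were below all buffer libraries, with a log2 fold change of -0.54 (SE 0.09, limma adjusted p = 0.035). Its paralogues had groups that did not overlap either and did not pass: IRF2BPL stood at 11.8 ± 1.04 and 8.44 ± 0.346 TPM (limma adjusted p = 0.067), and IRF2BP2 at 72.9 ± 8.39 and 56.6 ± 1.501 TPM (adjusted p = 0.083; SD, 3 libraries per group for both). SOCS1, a feedback inhibitor of JAK kinases, was at 2.14, 2.65 and 1.27 TPM in buffer and at 1.10, 0.89 and 0.91 TPM in treated libraries (log2 fold change -0.59, limma adjusted p = 0.142). Of the 9 regulators, 5 had treated libraries all below buffer, as 20.1% of all tested genes did. These 5 include IRF2BP1 and both paralogues, so the count rests in part on 1 gene family. The list was drawn up with earlier results of these data known, so the count is no independent support for a shared fall. The median of the 9 was -0.18, and -0.094 with the GC trend removed. Transcripts of IRF2BP1 and SOCS1 have a GC content of 68.5% and 69.1%, and after the GC trend was removed their values were -0.27 (limma adjusted p = 0.143) and -0.31. IRF2BP1 passed in 3 of 15 alternatives and not when any 1 library was left out, and over all alternatives its adjusted p reached at most 0.163 in limma.

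The genes known chiefly as interferon gamma targets held the gene that rose, and most of those tested leaned the other way. B2M, the light chain of MHC class I, was at 1038, 927 and 976 TPM in buffer and at 1237, 1192 and 1234 TPM in treated libraries (log2 fold change 0.32, SE 0.06, limma adjusted p = 0.047). It too passed in 3 of 15 alternatives and not when any 1 library was left out. Of the 17 listed, 10 were tested. Of these, 6 had treated libraries all above buffer, as 7% of all tested genes did. The median of the 10 was 0.19, and 0.32 with the GC trend removed, where ICAM1 and PSMB8 passed (limma adjusted p = 0.032 and 0.042) and B2M did not. Besides B2M these were the immunoproteasome subunit genes PSMB8 (64.2 ± 1.51 and 75.6 ± 1.70 TPM), PSMB9 and PSMB10, the adhesion gene ICAM1 (45.6 ± 0.567 and 53.2 ± 0.982 TPM; SD, 3 libraries per group for both) and WARS1. Their limma adjusted p ran from 0.083 to 0.224. The other 4 tested genes had overlapping groups. Their log2 fold changes were 0.20 for NLRC5, 0.13 for GBP3, 0.04 for TAP1 and -0.17 for CIITA. B2M and PSMB9 were known to be higher from earlier results of these data. The list was drawn up with those results known, so its count of 6 is no independent support for a shared lean. ICAM1 is also known as a target of NF-kB.

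Among the low genes of that group, GBP1 and GBP2, guanylate-binding proteins that respond steeply to interferon gamma, did not reach the level needed for testing. GBP1 was at 0.15, 0.13 and 0.10 TPM in buffer and at 0.43, 0.32 and 0.22 TPM in treated libraries. GBP2 was at 0.03, 0.03 and 0.07 TPM in buffer and at 0.19, 0.30 and 0.74 TPM in treated libraries. Both had treated libraries all above buffer, at levels where the table's rounding to 2 decimals is a large part of the buffer values. In a fit without the filter their limma adjusted p was 0.297 and 0.341. They were singled out after their values were seen. GBP4 and GBP5, at most 0.16 TPM, and GBP3, from 3.47 to 5.50 TPM, had overlapping groups. CXCL9 was listed at 0 throughout, and CXCL11 and IDO1 never passed 0.12 TPM.

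Of the 11 sensors, adaptors and kinases, IKBKE, a kinase that activates IRF3 and IRF7, had the largest value. It was at 21.95, 28.3 and 24.4 TPM in buffer and at 34.8, 36.0 and 31.3 TPM in treated libraries. The groups do not overlap, and the log2 fold change was 0.44 (SE 0.10, limma adjusted p = 0.075). After the GC trend was removed it was 0.60 and passed (limma adjusted p = 0.025). TBK1, its paralogue, ranged from 15.9 to 20.2 TPM in buffer and from 19.0 to 21.7 TPM in treated libraries, and the groups overlap. MAVS, the adaptor of the RNA sensors, stood at 14.4 ± 1.35 and 12.2 ± 0.706 TPM (SD, 3 libraries per group; log2 fold change -0.22). IKBKE was named after its values were seen.

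**Figure D5:**
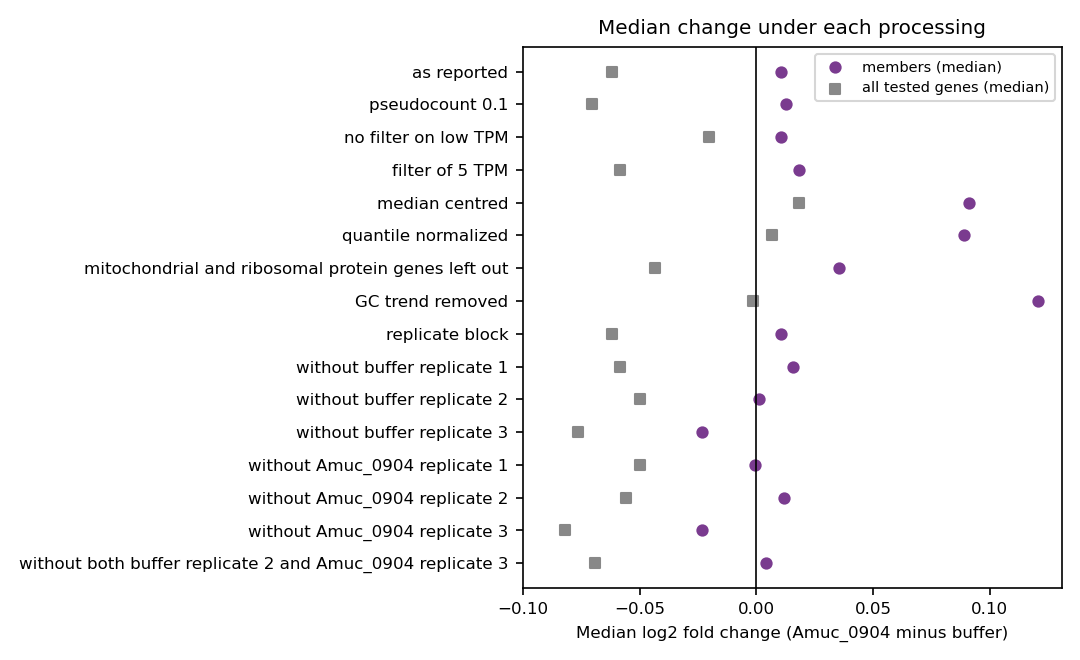
Median log2 fold change (x axis, Amuc_0904 minus buffer) of the tested members (purple circles) and of all tested genes (grey squares) as reported and under 15 other ways of processing (y axis). The median of the members lies between -0.02 and 0.12 and above that of all tested genes in each row.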

How the data were processed

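RNA sequencing libraries of SW480 cells (3 given buffer, 3 given Amuc_0904) were described by 1 gene table that the authors deposited in TPM, rounded to 2 decimals. Per the labels' design text, abundances are from RSEM. Further tools in the submitters' processing notes are HISAT2, StringTie and edgeR, with no version. The build in those notes is a mouse one (GRCm38.p6), but the gene identifiers are human, so the annotation behind the values is uncertain. TPM keeps no read number: depth is unknown, and no counting interval or floor is given. Totals were 996107 to 997036 TPM per library. Strand use is not given in the sources used here.

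On the log2(TPM + 1) scale, the 14421 genes that reached 1 TPM in 3 or more libraries were fitted with limma 3.58.1 in R 4.3.3 (mean-variance trend, two-sided), Benjamini-Hochberg adjusted over all of them, with 0.05 as threshold. The fit was tested on simulated data with noise drawn separately for each gene and no shift in GC content between groups. That simulation therefore does not show what the fit recovers in these libraries. Means are given with the SD between libraries, and SEs and 95% intervals are those of the fit. Positions and GC content (longest transcript) are from GENCODE 29, and promoters from RefSeq. A wider list and markers of other cell types were fitted alike. One result from the wider list is not reported here. The members and lists were chosen with earlier results of these data known. Values were to be given for every member past the threshold, every member whose groups did not overlap, per role group the member with the highest level and the one with the largest change, untested members by range, and from the wider list the genes past the threshold and the ligands. Other genes given were chosen after their values were seen. The rule also asked for promoters of the members with the largest changes and for IFITM proteins. These are not shown, and promoter windows chosen by level stand in their place. Alternatives were a pseudocount of 0.1, no filter, a filter of 5 TPM, median centring, quantile normalization, mitochondrial and ribosomal protein genes left out, GC trend removed by loess with a span of 0.3, a replicate block, each library left out, and buffer replicate 2 and Amuc_0904 replicate 3 left out together. The same alternatives were run for CDH1 and CDX2 after seeing the data. Figures used matplotlib 3.10.9 in Python 3.11.15.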

Additional observations from a re-analysis of the deposited data

How the results depend on the processing

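No member passed the threshold in limma under any of the 15 alternatives (adjusted p at least 0.0792, for IRF2 with a filter of 5 TPM), and 17 of the 30 kept their sign in each that tested them (the 5 TPM filter tested 24). The 197 genes called over the whole table became 9 with no filter, 432 with a filter of 5 TPM, 85 after median centring (49.4% of them fell), 102 after quantile normalization (54.9% fell), 117 with the GC trend removed and 33 to 110 with 1 library left out, or 13 without buffer replicate 2 and Amuc_0904 replicate 3 together. The 2 called genes of the wider list became 4 with the 5 TPM filter, 3 others with the GC trend removed (IKBKE, ICAM1 and PSMB8) and 0 with no filter, after centring, after quantile normalization and whenever a library was left out. The median of the members moved to 0.091 after centring, 0.089 after quantile normalization and 0.12 with the GC trend removed. The cause was not tested. Libraries of the same replicate number showed no sign of pairing: same-numbered deviations correlated at -0.029, 0.075 and -0.094 over 14421 genes. Differently numbered ones correlated at -0.12 to 0.14. Whether libraries shared a culture or a day was not tested. With the replicate number as a block, 80 genes were called in all, 0 of the members and 0 of the wider list.

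Values of the opposite sign to the reported one had an adjusted p of at least 0.382. After centring, log2 fold changes were 0.046 for IFNGR2, 0.046 for IRF3, 0.061 for OAS1 and 0.045 for BST2. After quantile normalization they were 0.043 for IFNGR2, 0.067 for OAS1 and 0.0070 for BST2, and with mitochondrial and ribosomal protein genes left out 0.0027 for OAS1. With the GC trend removed they were 0.084 for IFNGR2, 0.13 for IRF3, 0.055 for IRF7, 0.029 for OAS1 and 0.11 for BST2. With libraries left out, the range was -0.065 to 0.093 for IFNAR2, -0.083 to 0.0021 for IFNGR2, -0.36 to 0.42 for IRF1, -0.083 to 0.016 for IRF3, -0.15 to 0.20 for IRF5, -0.33 to 0.011 for IRF7, -0.34 to 0.078 for IRF9, -0.081 to 0.066 for OAS1, -0.054 to 0.067 for OAS3, -0.020 to 0.083 for IFIT3, -0.062 to 0.00062 for BST2, -0.12 to 0.24 for USP18 and -0.10 to 0.097 for IFI6. Depth is unknown, so for the 11 untested members a change too small to detect and no change cannot be told apart.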
